A study of Mus musculus with 6 samples.

Results

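The proteasome genes were 42 of the 35976 gene rows measured in primary mouse adipocytes. They were chosen by symbol: every Psma, Psmb, Psmc or Psmd gene followed by a number, Psme1 to Psme4, and Nfe2l1. The immunoproteasome subunits Psmb8, Psmb9 and Psmb10 and pseudogenes were left out. The rule itself used no measured value, but it was set with earlier results of these data known. By role there were 8 genes of the 20S alpha ring, 8 of the 20S beta ring, 6 ATPases and 11 non-ATPase subunits of the 19S particle, and 3 chaperones of 19S assembly. There were also 4 proteasome activators and the transcription factor Nfe2l1. The last gene, Psmc3ip, shares only the symbol: it encodes a partner of meiotic recombinases.

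The proteasome is the protease that degrades proteins tagged with ubiquitin. Its 20S core is a barrel of alpha and beta rings, in which Psmb5, Psmb6 and Psmb7 carry the active sites. The 19S particle on its ends binds the ubiquitin chain, removes it, and unfolds the protein with a ring of ATPases. NFE2L1 is a transcription factor made at the endoplasmic reticulum that induces proteasome genes when proteasome activity is short, and in mouse brown fat it is known to maintain proteasome function during heat production.

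All cells were primary adipocytes with both copies of Ppargc1a flanked by loxP sites, and Ppargc1a encodes the coactivator PGC-1alpha. They received adenovirus encoding the recombinase Cre, to excise Ppargc1a, or GFP, then Rbm43 siRNA or control siRNA, and were differentiated before RNA sequencing. The 3 groups of 2 libraries were compared: Cre virus with Rbm43 siRNA, GFP virus with Rbm43 siRNA, and GFP virus with control siRNA. Since all cells carried the loxP sites, an effect of Cre itself and an effect of losing Ppargc1a cannot be told apart. Cre virus with control siRNA was not analysed here, so whether the Cre difference depends on Rbm43 siRNA was not tested. The design calls the libraries biological duplicates without saying whether they came from separate animals, so p-values measure the spread between these libraries, which may be technical.

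Libraries held 15775398 to 21961724 reads in genes. Rbm43 had normalized counts of 53.8 and 32.5 in Cre plus Rbm43 siRNA, 43.7 and 46.6 in GFP plus Rbm43 siRNA, and 185 and 224 in GFP plus control siRNA. Its log2 fold change was −2.15 ± 0.21 (SE) for Rbm43 siRNA against control siRNA with GFP virus (adjusted p = 3.59e-07, limma). Ppargc1a had 463 and 469 in the libraries labelled Cre, 399 and 423 in GFP plus Rbm43 siRNA, and 163 and 202 in GFP plus control siRNA. That count spans the whole gene, also the exons that Cre leaves in place, and therefore says nothing about excision. Directions follow the virus labels. All 10 adipocyte markers examined were expressed, with summed normalized counts of 314831 to 316690, 365616 to 373955 and 277955 to 295499 in the same order of groups. The 5 lymphocyte markers examined summed to at most 2.80 normalized counts in any library, and Cd3d and Ms4a1 among them were at 0 in every library. Fibroblast markers were abundant, with summed counts of 623292 to 627925, 573592 to 599950 and 616059 to 620735, led by the collagens Col1a1 and Col3a1.

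Of the 42 genes, 40 reached a normalized count of 10 in 2 or more libraries and were tested. A normalized count is a read count divided by 1 size factor per library. The genes left out were Psma8, an alpha subunit known from the testis, at 1.76 to 5.20 across the 6 libraries, and Psmb11, the catalytic subunit of the thymus, at 0 to 0.979. The genes lie on 16 chromosomes, with 10 on chromosome 11 and 6 on chromosome 14 (mm10). The activator genes Psme1 and Psme2 face each other on chromosome 14, 5911 bases apart.

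Promoter sequence was read for 35 of the 42 genes, over 250 bases before to 50 bases after each RefSeq start site (GRCm38.p6). No window was given for Psma8, Psmb1, Psmb2, Psmb7, Psmc3, Psmd3 or Psmd7. Motifs were searched on both strands. The antioxidant response element core TGACNNNGC, the kind of site NFE2L1 and NFE2L2 bind, was in 6 of 35 genes (17.1%, against 14% of all 27025 genes with a window). They were Psmb5, Psmb6, Psmc6, Psmd9, Psmd12 and Psme4. The core GAAANNGAA of the interferon-stimulated response element was also in 6 (17.1%, against 9.76%), namely Psmb3, Psmb4, Psmc2, Psmd4, Psmd9 and Psme1. CCAAT was in 15 (42.9%, against 41.1%). The estrogen-related receptor element TNAAGGTCA, whose receptors partner with PGC-1alpha, was in Psmc3ip alone (2.86%, against 1.43%). No 2 matches of different motifs shared a base in these windows. The 4 stretches printed here belong to subunits whose levels differed between groups, written 5′ to 3′ along the gene's strand with the match in capitals. The Psmd12 and Psmb3 matches are on the opposite strand and so appear as the reverse complement of the motif.
Psma1, chr7:114276185-114276239, minus strand, CCAAT: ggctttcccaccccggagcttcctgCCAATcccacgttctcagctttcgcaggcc
Psmb5, chr14:54618009-54618067, minus strand, antioxidant response element core: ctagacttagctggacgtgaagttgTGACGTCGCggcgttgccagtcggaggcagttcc
Psmb3, chr11:97703247-97703305, plus strand, interferon-stimulated response element core: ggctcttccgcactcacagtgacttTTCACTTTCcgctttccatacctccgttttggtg
Psmd12, chr11:107479278-107479314, plus strand, antioxidant response element core: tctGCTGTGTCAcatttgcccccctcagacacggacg

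Within each part of the particle, subunit mRNAs were not at equal levels. Divided by the length of the principal annotated transcript, the tested alpha ring genes spanned 879 to 3580 normalized counts per kb in Cre plus Rbm43 siRNA, 959 to 4839.5 in GFP plus Rbm43 siRNA, and 888 to 3458 in GFP plus control siRNA. Psma1 was the highest and Psma2 the lowest of the tested genes in each group, although Psma2 and Psma3 have long annotated transcripts of 2911 and 2846 bases, which lower their values per kb if shorter forms prevail. Among the tested beta ring genes, Psmb3 was highest and Psmb5 lowest, at 2781 and 1105 per kb in Cre plus Rbm43 siRNA, 3467 and 1313 in GFP plus Rbm43 siRNA, and 2799 and 994 in GFP plus control siRNA. The ATPases were closest together, the highest (Psmc1) being 1.93, 1.95 and 1.78 times the lowest (Psmc6) in the same order of groups. Among the non-ATPase subunits Psmd8 was highest and Psmd11 lowest in every group. The 3 assembly chaperones lay lower than these subunits: their means over all libraries were 242 (Psmd5), 165 (Psmd9) and 285 (Psmd10) normalized counts per kb. Annotated length bears on these low values too, at 2848 bases for Psmd11, 2234 for Psmc6 and 4397 for Psmd5. Before division by length, Psmd11 stood above Psmd3, Psmd12 and Psmd13 in every library. Psmc6 likewise stood above Psmc4 and Psmc5.

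**Figure D1:**
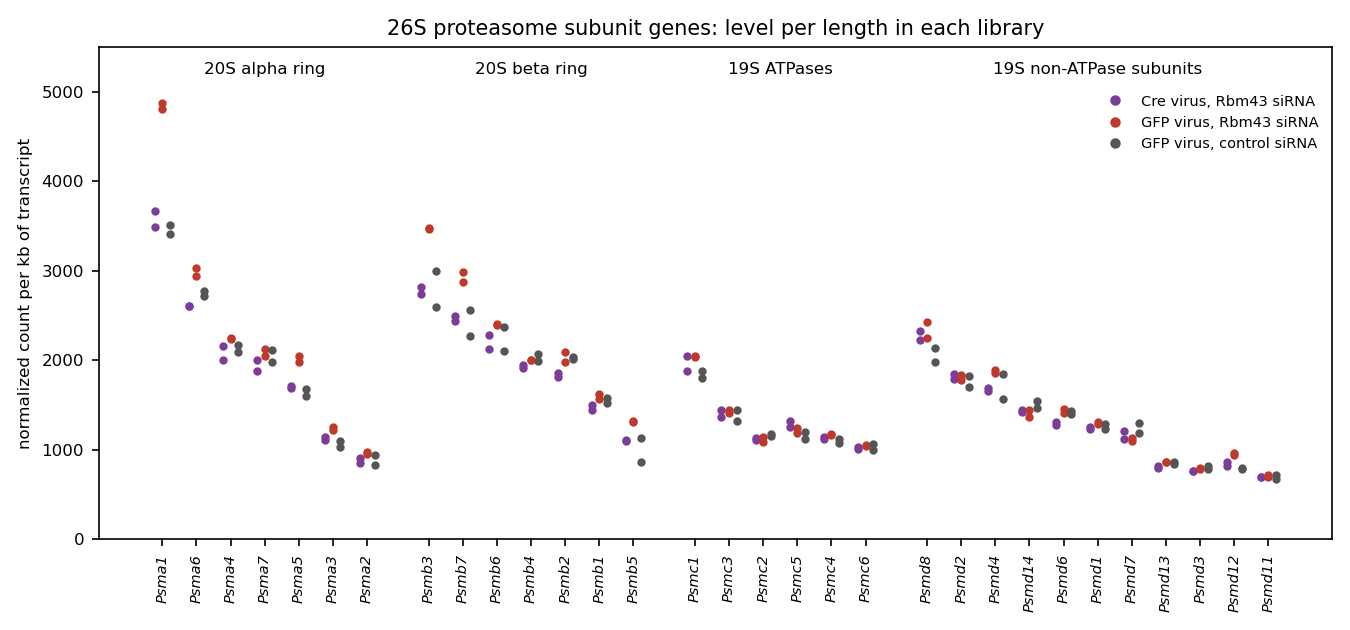
Normalized count per kb of principal transcript (linear axis) for the 31 tested 26S subunit genes, 1 point per library, with genes ordered by level within each role. Psma1 stands highest, at 4839.5 per kb in GFP plus Rbm43 siRNA against 3458 in GFP plus control siRNA, and the ATPases are the most even group.

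With GFP virus in both groups, Rbm43 siRNA was compared with control siRNA. Of the 40 proteasome genes tested, 13 rose and 0 fell (32.5% and 0%), where 13.5% of all 14211 genes tested rose and 9.76% fell. At an unadjusted p under 0.05 there were 15 above and 1 below, or 16 of 40. Of all 14211 genes, 4828 were under it in either direction. The members' median log2 fold change was 0.06, against −0.01 over all genes. No member's change was large: the largest, of Psma1, was 1.40-fold. The 33 genes of the 26S particle held 0.411% and 0.406% of all reads in GFP plus Rbm43 siRNA and 0.393% and 0.375% in GFP plus control siRNA. In bulk RNA, fewer cells of a type and less RNA per cell cannot be told apart.

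In the alpha ring 3 of 7 tested genes rose. Psma1 had normalized counts of 5848 and 5777 in GFP plus Rbm43 siRNA, against 4091 and 4215 in GFP plus control siRNA, a log2 fold change of 0.48 ± 0.05 (SE; adjusted p = 4.1e-07, limma). The groups did not overlap, and the gap between them was many times the distance between replicates. Here and below, groups without overlap describe the values and add no support to a call, since their share among all genes was not counted. Genes not called could be apart too, as Psmd1 was for Cre against GFP virus with Rbm43 siRNA (adjusted p = 0.479, limma). Psma5 had 2533 and 2447 in GFP plus Rbm43 siRNA, against 2083 and 1977 in GFP plus control siRNA, again without overlap (0.30 ± 0.05, adjusted p = 3.43e-04). Psma3 also rose (0.22 ± 0.05, adjusted p = 0.00372). The other 4 alpha genes had log2 fold changes of 0.03 to 0.12 and were not called. Psma1 and Psma5 were the 2 members whose call held under each of the 17 alternative settings described in the closing section.

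In the beta ring 3 of 7 tested genes rose, and 2 of them carry active sites. Psmb5, the chymotrypsin-like subunit, had 1187 and 1174 in GFP plus Rbm43 siRNA, against 1012 and 775 in GFP plus control siRNA. All Rbm43 siRNA values lay above the control ones, but the control libraries were far apart, and the log2 fold change of 0.41 ± 0.09 (adjusted p = 0.00153) was 0.22 without control replicate 2 and 0.61 without control replicate 1. Psmb3, a non-catalytic subunit, had 2659.7 and 2652 in GFP plus Rbm43 siRNA, against 2299 and 1989 in GFP plus control siRNA (0.31 ± 0.06, adjusted p = 8.23e-04). Psmb7, the trypsin-like subunit, had 3464 and 3332 in GFP plus Rbm43 siRNA, against 2976 and 2629 in GFP plus control siRNA (0.28 ± 0.06, adjusted p = 0.00123). Neither gene's groups overlapped. Over the 17 alternatives the log2 fold change ran from 0.21 to 0.42 for Psmb3 and from 0.19 to 0.37 for Psmb7. Over all genes tested the control replicates agreed least, with a chi-square per degree of freedom of 4.09 between their reads. It was 2.74 in GFP plus Rbm43 siRNA and 1.76 in Cre plus Rbm43 siRNA. Psmb7 overlaps Nek6 on the opposite strand, and whether counting used strand is not given in the sources used here. Nek6 itself had a log2 fold change of −0.07. Psmb6, the caspase-like active site subunit, had a log2 fold change of 0.10 ± 0.06 and was not called (adjusted p = 0.255).

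In the 19S particle 3 of 17 genes rose, 1 of 6 ATPases and 2 of 11 non-ATPase subunits, a share near the 13.5% of all genes tested. Psmc1, an ATPase, had 3251 and 3241 in GFP plus Rbm43 siRNA, against 2989.8 and 2865 in GFP plus control siRNA (0.15 ± 0.05, adjusted p = 0.0488). Psmd12, a scaffold subunit of the lid, had 1842 and 1784 in GFP plus Rbm43 siRNA, against 1509 and 1499.6 in GFP plus control siRNA (0.27 ± 0.05, adjusted p = 0.00119). Psmd8, also a lid subunit, had 3738 and 3463 in GFP plus Rbm43 siRNA, against 3296 and 3051 in GFP plus control siRNA (0.18 ± 0.05, adjusted p = 0.0204). In none of these 3 did the groups overlap. The call of Psmd12 held in 16 of the 17 alternatives, that of Psmd8 in 9 and that of Psmc1 in 5. Those of Psmc1 and Psmd8 were both lost without control replicate 2, without GFP plus Rbm43 siRNA replicate 1, and without either Cre library, which here served only to estimate the spread. Both were also lost with no filter on low counts, with upper-quartile scaling, without a mean-variance trend and with only the 2 groups compared. That of Psmc1 was lost as well with total scaling, without GFP plus Rbm43 siRNA replicate 2, and with edgeR and DESeq2. The ubiquitin chain cleaving subunit Psmd14 had a log2 fold change of −0.10 ± 0.05 and its partner Psmd7 of −0.16 ± 0.06, and neither was called (adjusted p = 0.203 and 0.0656). Psmd7 was called lower without control replicate 2 and with upper-quartile and total scaling. The chaperones Psmd5, Psmd9 and Psmd10 had log2 fold changes between −0.00 and 0.02, and none was called.

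Of the 4 activators, which open the core in place of the 19S particle, 3 rose. Psme1 and Psme2 together form PA28, an interferon-inducible ring. Psme1 had 1242 and 1255 in GFP plus Rbm43 siRNA, against 1082 and 1020.0 in GFP plus control siRNA (0.25 ± 0.06, adjusted p = 0.00467). Psme2 had 2731 and 2677 in GFP plus Rbm43 siRNA, against 2319.8 and 2091 in GFP plus control siRNA (0.30 ± 0.06, adjusted p = 5.92e-04). Both genes were higher in both Rbm43 siRNA libraries. Psme4, or PA200, had 3247 and 3427 in GFP plus Rbm43 siRNA, against 2836 and 3087 in GFP plus control siRNA (0.17 ± 0.05, adjusted p = 0.0242). The groups were apart, but its call held in only 7 of the 17 alternatives. It was lost without control replicate 1, without GFP plus Rbm43 siRNA replicate 2, without either Cre library, and with only the 2 groups compared. It was also lost with no filter, with upper-quartile or total scaling, without a mean-variance trend and with DESeq2. Psme3, the nuclear PA28gamma, had 1917 and 1883 in GFP plus Rbm43 siRNA, against 1948 and 1855 in GFP plus control siRNA. Those groups overlapped, with a log2 fold change of −0.00 and a 95% interval of −0.11 to 0.11.

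Psme1 overlaps Emc9 on the opposite strand, and Emc9 moved likewise without being called (0.25 ± 0.10, adjusted p = 0.0652). Psme2 has a near-identical copy, Psme2b, so reads may have been split between them. Psme2b had 218 and 198 in GFP plus Rbm43 siRNA, against 160.2 and 149.7 in GFP plus control siRNA (0.42 ± 0.12, adjusted p = 0.0134).

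Nfe2l1 averaged 1810.5 normalized counts per kb over all libraries. It had 9143 and 8873 in GFP plus Rbm43 siRNA, against 7937 and 7604 in GFP plus control siRNA, a log2 fold change of 0.21 ± 0.05 (adjusted p = 0.00191). Its groups did not overlap, and the call was lost only without a mean-variance trend among the 17 alternatives. NFE2L1 is activated by cleavage of its protein, which these RNA data do not measure. Of 16 tested genes that process it or pair with it, 1 rose, where 13.5% of all genes did. That gene was Ufd1l, which acts in the extraction of NFE2L1 from the endoplasmic reticulum (0.21 ± 0.06, adjusted p = 0.0211). That call held in only 9 of the 17 alternatives, where the log2 fold change ran from 0.14 to 0.27. The protease Ddi2 that cleaves it had a log2 fold change of −0.06 and the peptide N-glycanase Ngly1 of 0.01, and neither was called; both were named for their role with their values known. Nfe2l3, a relative, had 0.48 ± 0.19 (adjusted p = 0.0754), and Vcp, the extracting ATPase, −0.09 ± 0.05 (adjusted p = 0.199). Of the 6 tested genes with the antioxidant response element core in their promoter window, 3 rose, against 9 of the 28 tested genes without it. For the interferon-stimulated core these counts were 2 of 6 and 10 of 28.

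Other genes of the pathway were counted list by list. None of 6 genes of 20S assembly and inhibition was called. They included the maturation factor Pomp (−0.14 ± 0.06, adjusted p = 0.111), the inhibitor Psmf1 (−0.18 ± 0.07, adjusted p = 0.0902) and the assembly chaperone Psmg1 (0.17 ± 0.10, adjusted p = 0.256). Of 14 proteasome-associated genes 3 rose and 1 fell, set against 13.5% and 9.76% of all genes. Those were the lid component Shfm1 (0.27 ± 0.07), the ubiquitin ligase Ube3c (0.16 ± 0.05), AI314180 (0.14 ± 0.05, named after its values were seen, to complete the count) and, lower, the shuttle factor Ubqln2 (−0.33 ± 0.08, adjusted p = 0.00364). The ubiquitin fusion gene Rps27a fell (−0.15 ± 0.05, adjusted p = 0.0436). The call of Ube3c held in only 6 and that of Rps27a in only 7 of the 17 alternatives. For these lists the medians were −0.04 (NFE2L1 partners), −0.04 (assembly) and 0.08 (associated), against −0.01 over all genes.

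The immunoproteasome subunits, which replace the catalytic subunits of the core after interferon, are counted apart from the 42 genes. Psmb8 had a log2 fold change of 0.58 ± 0.06 and Psmb9 of 0.64 ± 0.11, both larger than that of Psma1, while Psmb10 (0.22 ± 0.09) was not called. Of 11 targets of NFE2L2, the relative of NFE2L1 that answers oxidative stress, 4 rose and 2 fell. Over all genes tested 13.5% rose and 9.76% fell. The cystine transporter Slc7a11 (−0.83 ± 0.14) and heme oxygenase Hmox1 (−0.31 ± 0.06) fell, and the glutathione synthesis gene Gclc rose (0.41 ± 0.09). Of 12 heat shock chaperone genes 3 fell, among them Hsp90ab1 (−0.18 ± 0.05), and the 2 that rose were Hspe1 (0.28 ± 0.07) and Hspd1 (0.23 ± 0.05), which encode mitochondrial proteins.

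Adipocyte markers moved in the same direction as the proteasome genes. Of 10 such markers 8 rose and 1 fell, and of 6 brown and beige markers 4 rose and 0 fell. Of all genes tested, 13.5% rose and 9.76% fell. The brown marker sums were 9525 to 9680 normalized counts in GFP plus Rbm43 siRNA and 6275 to 6862 in GFP plus control siRNA. The macrophage sums were 1415 to 1647 and 1649.9 to 1703 in the same order, with 3 of 8 markers lower, and 3 of 8 fibroblast markers were lower. The part of cell composition or differentiation in the proteasome result was not tested.

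**Figure D2:**
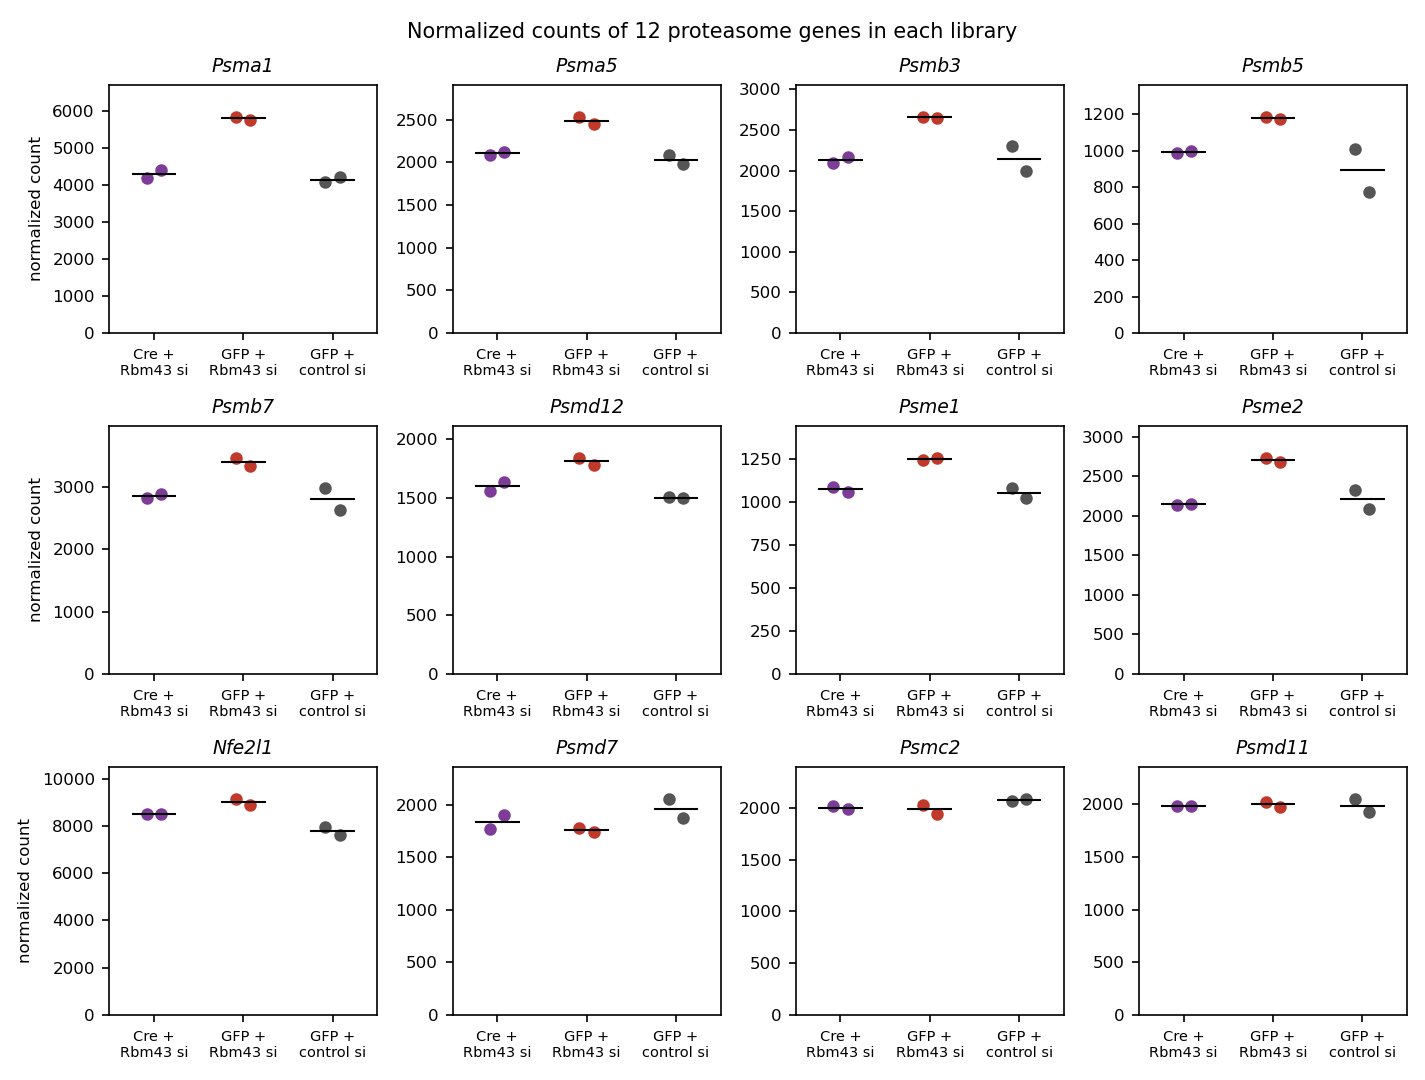
Normalized counts (linear axes from 0) of 12 proteasome genes in each of the 6 libraries. Points are libraries and bars are group means. The first 9 panels are genes called higher with Rbm43 siRNA than with control siRNA, so their rise over control follows from that choice. The called genes Psma3, Psmc1, Psmd8 and Psme4 are not shown. In these 9 panels GFP plus Rbm43 siRNA is highest, as for Psma1 (5848 and 5777 against 4195 and 4403 in Cre plus Rbm43 siRNA). The last 3 panels, Psmd7, Psmc2 and Psmd11, were picked after their values were seen as examples that were not called.

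Cre virus was then compared with GFP virus, with Rbm43 siRNA in both groups. Here 8 of the 40 tested genes fell and 0 rose (20% and 0%), where 5.88% of all genes tested fell and 2.62% rose. At an unadjusted p under 0.05 there were 15 below and 0 above, where 2960 of all 14211 genes were under it in either direction. The members' median log2 fold change was −0.11, against 0.00 over all genes, and 34 of 40 were below 0. The share of reads in the 26S genes was 0.379% and 0.389% in Cre plus Rbm43 siRNA and 0.411% and 0.406% in GFP plus Rbm43 siRNA. This comparison shares the 2 GFP plus Rbm43 siRNA libraries with the one of the siRNAs, so the falls here and the rises there are not independent.

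In the 20S core all 14 tested genes had a fold change below 0 and 5 were called, where 5.88% of all genes tested fell. In the 19S particle 1 of 17 was called, a share near that of all genes, and 12 were below 0. The share of all genes with a fold change below 0 was not counted, and their median log2 fold change was 0.00. Whether the core and the 19S particle differed from each other was not tested. The summed alpha ring counts were 18694 and 19483 in Cre plus Rbm43 siRNA and 22408 and 22086 in GFP plus Rbm43 siRNA. Psma1 alone held 4195 and 4403 of these counts in Cre plus Rbm43 siRNA and 5848 and 5777 in GFP plus Rbm43 siRNA. Of the 7 tested alpha genes 4 were not called. The beta ring sums were 14007 and 14357 in Cre plus Rbm43 siRNA and 16233 and 15886.5 in GFP plus Rbm43 siRNA. The summed counts of the ATPases were 12785 and 13218 in Cre plus Rbm43 siRNA and 13298 and 13062 in GFP plus Rbm43 siRNA, and those overlapped. The summed counts of the non-ATPase subunits were 27349 and 27910.0 in Cre plus Rbm43 siRNA and 29022 and 28226 in GFP plus Rbm43 siRNA, which did not overlap.

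Psma1 had 4195 and 4403 in Cre plus Rbm43 siRNA, against 5848 and 5777 in GFP plus Rbm43 siRNA, a log2 fold change of −0.44 ± 0.05 (adjusted p = 1.26e-05, limma). Psma5 had 2092 and 2121 in Cre plus Rbm43 siRNA, against 2533 and 2447 in GFP plus Rbm43 siRNA (−0.24 ± 0.05, adjusted p = 0.00559). The groups of both genes were well apart. Psma6 fell by 0.19 on the log2 scale (SE 0.05, adjusted p = 0.0154), and the other 4 alpha genes had −0.13 to −0.11. In the beta ring Psmb3 had 2099 and 2162 in Cre plus Rbm43 siRNA, against 2659.7 and 2652 in GFP plus Rbm43 siRNA (−0.32 ± 0.06, adjusted p = 0.00212). Psmb7 had 2827 and 2891 in Cre plus Rbm43 siRNA, against 3464 and 3332 in GFP plus Rbm43 siRNA (−0.25 ± 0.06, adjusted p = 0.00843). Neither pair of groups overlapped. Psmb5 had 991 and 997 in Cre plus Rbm43 siRNA, against 1187 and 1174 in GFP plus Rbm43 siRNA. Its values were apart too, but its log2 fold change of −0.25 ± 0.09 was not called (adjusted p = 0.0897). It was called with the replicate block, with only the 2 groups compared, and without either control library.

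Psmd12 was the 19S gene that fell, at 1563 and 1635 in Cre plus Rbm43 siRNA, against 1842 and 1784 in GFP plus Rbm43 siRNA (−0.18 ± 0.05, adjusted p = 0.0458). Among the ATPases the log2 fold changes ran from −0.06 (Psmc1) to 0.08 (Psmc5), and none was called. Psmc1 had 2982 and 3259 in Cre plus Rbm43 siRNA, against 3251 and 3241 in GFP plus Rbm43 siRNA, with overlapping groups. Psmd8 had 3435 and 3581 in Cre plus Rbm43 siRNA, against 3738 and 3463 in GFP plus Rbm43 siRNA, also overlapping (−0.04, 95% interval −0.15 to 0.08). Of the chaperones, Psmd5 (−0.13 ± 0.06), Psmd9 (0.01 ± 0.08) and Psmd10 (−0.08 ± 0.08) were not called.

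Both PA28 genes fell. Psme1 had 1086 and 1058 in Cre plus Rbm43 siRNA, against 1242 and 1255 in GFP plus Rbm43 siRNA (−0.22 ± 0.06, adjusted p = 0.0261). Psme2 had 2139 and 2155 in Cre plus Rbm43 siRNA, against 2731 and 2677 in GFP plus Rbm43 siRNA (−0.33 ± 0.06, adjusted p = 6.58e-04). The groups were apart in both. Emc9, on the strand opposite Psme1, fell as well (−0.44 ± 0.10, adjusted p = 0.00571). Whether the 2 genes shared reads was not tested. Psme2b had −0.27 ± 0.12 and was not called (adjusted p = 0.189). Psme3 had 1827 and 1838 in Cre plus Rbm43 siRNA, against 1917 and 1883 in GFP plus Rbm43 siRNA (−0.05 ± 0.05, adjusted p = 0.644). Psme4 had 3119 and 3072 in Cre plus Rbm43 siRNA, against 3247 and 3427 in GFP plus Rbm43 siRNA (−0.11 ± 0.05, adjusted p = 0.259). Nfe2l1 had 8511 and 8489 in Cre plus Rbm43 siRNA, against 9143 and 8873 in GFP plus Rbm43 siRNA, and its log2 fold change of −0.08 ± 0.05 was not called (adjusted p = 0.321). For these last 3 genes the groups did not overlap, but the gaps were of the order of the spread within groups.

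The count of 8 depended on single libraries. It was 2 without either Cre library, 3 without GFP plus Rbm43 siRNA replicate 1, 5 without replicate 2, 13 without control replicate 1 and 14 without control replicate 2. The calls of Psma1 and Psme2 held without each library in turn, and that of Psmb3 was lost without either Cre library. Psma5 and Psmb7 were lost without either Cre library and without GFP plus Rbm43 siRNA replicate 1, and Psma6, Psmd12 and Psme1 without any 1 of the 4 libraries compared. Of the 17 alternatives the call of Psmd12 held in only 8, that of Psme1 in 10, those of Psma6 and Psmb7 in 12 and that of Psma5 in 13. Without a mean-variance trend no member was called.

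Genes around the proteasome were counted list by list here too, beside the 5.88% of all genes that fell and 2.62% that rose. The lists of 20S assembly (6 genes) and associated proteins (14) held none. In these lists the smallest p values belonged to Psmg4 (−0.21 ± 0.19), Psmg2 (−0.07 ± 0.10) and Pomp (−0.04 ± 0.06), and to Rad23b (0.13 ± 0.05), Ubqln1 (−0.12 ± 0.05) and Ubqln2 (0.18 ± 0.08). The ubiquitin activating enzyme Uba6 (0.19 ± 0.07) and Rps27a (0.07 ± 0.05) were not called. Of 16 NFE2L1 partners, Bach1, a repressor that competes for the same sites, rose (0.23 ± 0.07, adjusted p = 0.0319). The small Maf partner Mafg (0.19 ± 0.07) and Nfe2l2 (0.15 ± 0.05) were next in order of p without being called. Among NFE2L2 targets Hmox1 rose (0.24 ± 0.06) and G6pdx fell (−0.26 ± 0.05). The chaperonin genes Hspd1 (−0.24 ± 0.05) and Hspe1 (−0.22 ± 0.07) fell. Of the 17 alternatives the call of Hspe1 held in only 8, with an adjusted p of up to 0.368 (limma), that of Bach1 in 10, of Hmox1 in 12, of Hspd1 in 13 and of G6pdx in 14. The immunoproteasome gene Psmb9 fell (−0.45 ± 0.11, adjusted p = 0.0108, call held in 12), while Psmb8 (−0.13 ± 0.06) and Psmb10 (−0.28 ± 0.09) were not called.

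Adipocyte markers moved with the proteasome genes here too. Of the 10 adipocyte markers 8 fell, and of the 6 brown and beige markers 5 fell, where 5.88% of all genes fell. The brown marker sums were 5890 to 6137 in Cre plus Rbm43 siRNA and 9525 to 9680 in GFP plus Rbm43 siRNA. No macrophage, fibroblast or endothelial marker was called. The part of adipocyte differentiation in the lower proteasome counts was not tested.

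**Figure D3:**
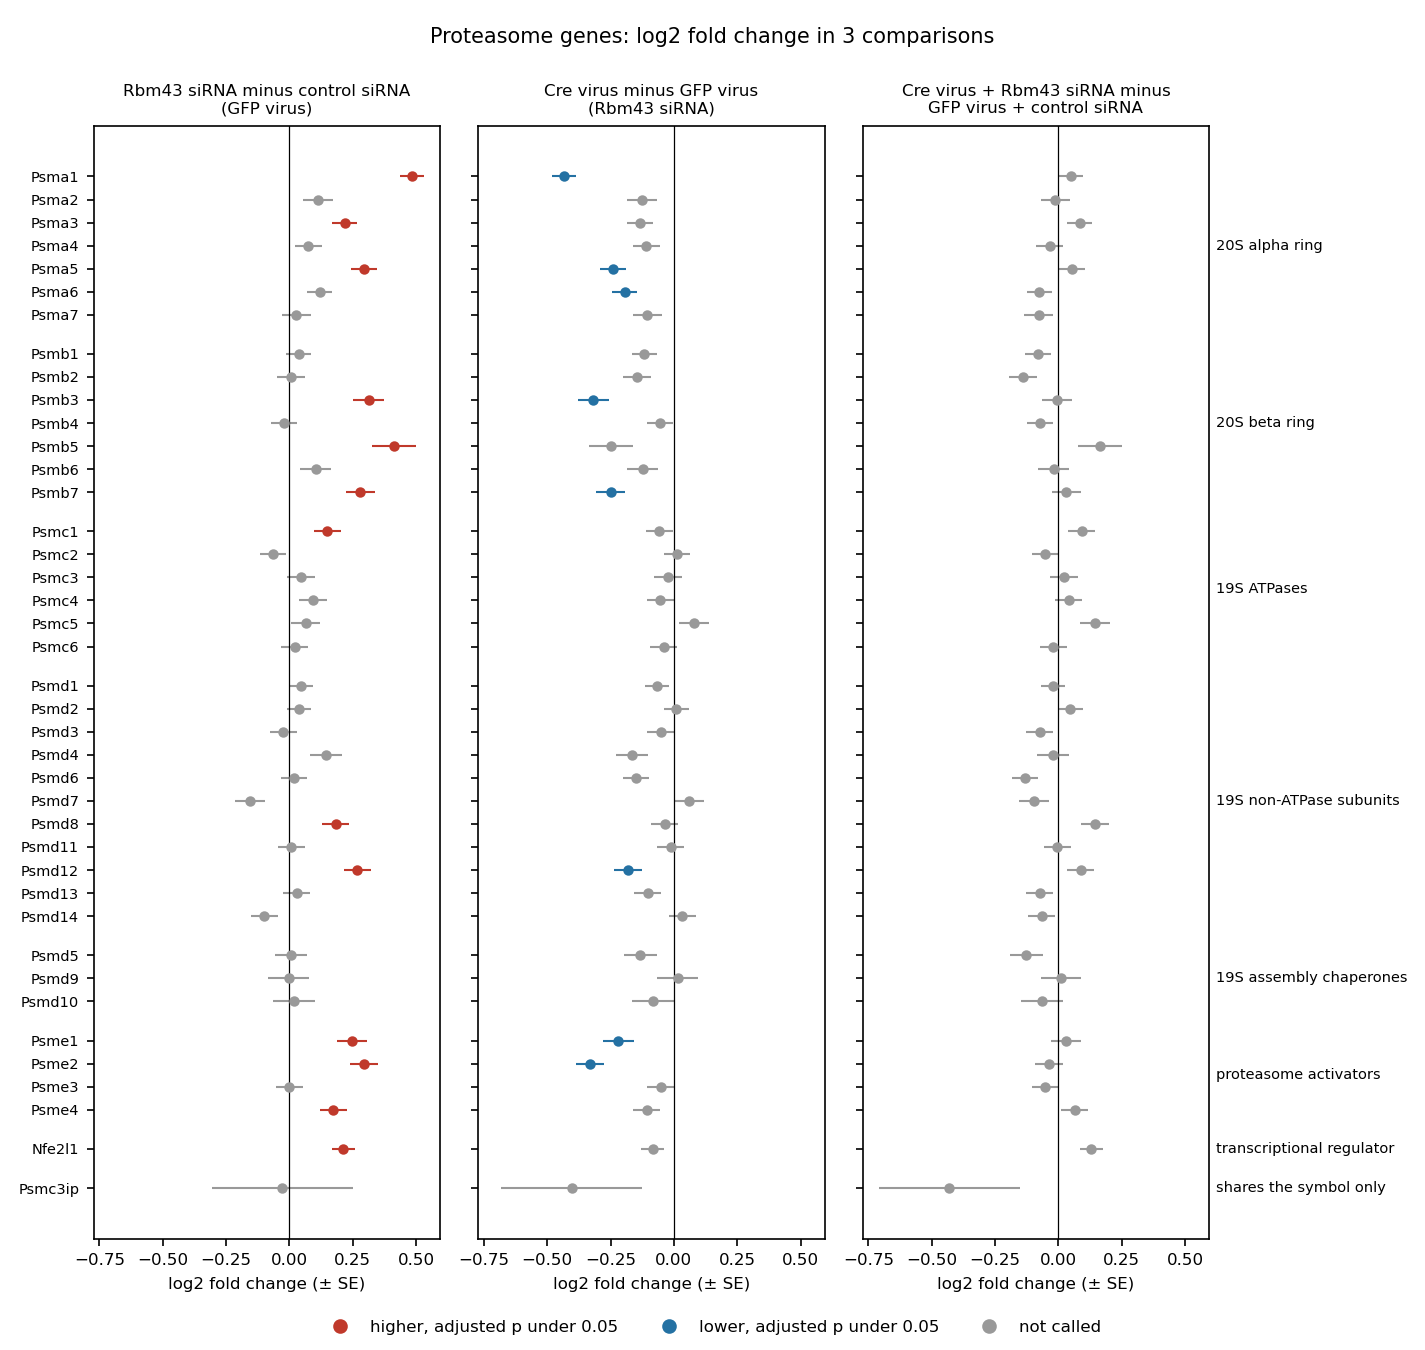
Log2 fold changes (linear axis, the first-named over the second-named group of each panel) of the 40 tested genes, by role, in the 3 comparisons. Points are estimates, bars are standard errors, red and blue mark genes called higher and lower, and grey those not called. There are 13 red points in the first panel, 8 blue in the second and 0 of either in the third.

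Cre plus Rbm43 siRNA was also set against GFP plus control siRNA, a comparison that shares libraries with both others. None of the 40 genes was called in either direction with limma, edgeR or DESeq2, where 8.47% of all genes tested rose and 6.28% fell. At an unadjusted p under 0.05 there were 3 above (Nfe2l1, Psmc5 and Psmd8) and 2 below (Psmb2 and Psmd6). Of all 14211 genes, 3888 were under it in either direction. A missing call does not show equal levels. The members' median log2 fold change was −0.02, against −0.00 over all genes. The 26S share of reads was 0.379% and 0.389% in Cre plus Rbm43 siRNA and 0.393% and 0.375% in GFP plus control siRNA, which overlapped.

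The intervals bound the differences. Psma1 had 4195 and 4403 in Cre plus Rbm43 siRNA, against 4091 and 4215 in GFP plus control siRNA, a log2 fold change of 0.05 with a 95% interval of −0.05 to 0.15. Psme2 had 2139 and 2155 in Cre plus Rbm43 siRNA, against 2319.8 and 2091 in GFP plus control siRNA, and its interval was −0.15 to 0.08. Psmb3 had 2099 and 2162 in Cre plus Rbm43 siRNA, against 2299 and 1989 in GFP plus control siRNA, with an interval of −0.13 to 0.12. All 3 pairs of groups overlapped. Nfe2l1 had 8511 and 8489 in Cre plus Rbm43 siRNA, against 7937 and 7604 in GFP plus control siRNA, with no overlap and an interval of 0.03 to 0.23 (0.13 ± 0.05, adjusted p = 0.0657). Its level in the Cre libraries thus stood between those of the other 2 groups. Without control replicate 1, Nfe2l1, Psmc5, Psmb5 and Psmd8 were called higher, so that library decided whether any member was called.

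Beyond the 40 genes, the ubiquitin activating enzyme Uba6 rose (0.22 ± 0.07, adjusted p = 0.0375), and no gene of 20S assembly, of the proteasome-associated list or of the NFE2L1 partners was called. Psmb8 was higher (0.46 ± 0.06), while Psmb9 (0.19 ± 0.11) and Psmb10 (−0.05 ± 0.09) were not called. Of the NFE2L2 targets Gclc (0.65 ± 0.09) and Gsr (0.24 ± 0.07) rose, and Slc7a11 (−0.77 ± 0.14) and G6pdx (−0.17 ± 0.05) fell. Of the heat shock genes Hspa1b (−0.29 ± 0.08) and Hspa8 (−0.21 ± 0.05) fell. Of the 17 alternatives the call of Uba6 held in 10, that of Hspa1b in 11 and those of Gsr and Hspa8 in 13. The adipocyte markers were mixed here, with 3 of 10 higher and 2 lower, and 3 of 6 brown and beige markers higher and 3 lower. Over all genes tested 8.47% rose and 6.28% fell.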

How the data were processed

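The table deposited by the authors gives each gene a signal, its reads scaled by the size factor of the library. The tools named, per the submitters' processing notes, are DESeq2 2.11.40.7, STAR 2.7.8 and fastp 0.23.2, and the build is mm10. Neither the gene counter nor the annotation or strand setting is given in the sources used here. All values (100% in each library) were whole multiples of 1 read within 0.01 read. The 14211 genes that reached a normalized count of 10 in 2 or more libraries were tested with limma 3.58.1 in R 4.3.3. The log2 scale with a pseudocount of 1, on which the trended fit was made, understates changes of low genes. All 6 libraries entered 1 fit with 3 residual degrees of freedom, and p-values were adjusted over all genes tested (Benjamini-Hochberg, called under 0.05). Alternatives, run with edgeR 4.0.16 and DESeq2 1.42.0 among others, are in the closing section. Values in every library are given for Nfe2l1, the activators and, per role and comparison, up to 2 called members with the largest rise and fall; a gene chosen in 1 comparison is given in the others too. Up to 3 genes by p were named from each related list, and not all of them are described; some members of the marker and ubiquitin lists are not reported here. Members and lists were chosen with earlier results of these data known. Gene positions and transcript lengths came from the mm10 annotation, promoters from RefSeq.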

Additional observations from a re-analysis of the deposited data

How the results depend on the processing

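The 17 alternatives changed 1 choice each: pseudocount, filter, scaling, replicate block, the groups in the fit, the mean-variance trend, the test, or 1 library left out. No named result turned direction past the threshold. For Rbm43 siRNA against control siRNA with GFP virus, the members higher were 13, and 2 without a mean-variance trend. The members lower were 0, and 1 with upper-quartile or total scaling (Psmd7). Leaving out 1 library gave 10 to 15 higher, 0 to 1 lower and a members' median of 0.0203 to 0.0963. The genes called were 3301, and 1304 without a trend, 2035 with DESeq2 and 2115 to 3633 without 1 library. Upper-quartile scaling called 1603 genes higher and 1861 lower, against 1914 and 1387. For Cre against GFP virus with Rbm43 siRNA, the members lower were 8, and 5 without a filter, 0 without a trend, 14 with only the 2 groups compared, and 2 to 14 without 1 library. The genes called were 1208, and 609, 0, 2083 and 312 to 2068 under the same settings. Total scaling called 565 genes higher and 734 lower, against 372 and 836. For Cre plus Rbm43 siRNA against GFP plus control siRNA, the members higher were 0, and 0 to 4 without 1 library, where the median was −0.0567 to 0.0292. The genes called were 2096, and 1251 without a filter, 433 without a trend, 1220 with DESeq2 and 770 to 2654 without 1 library. The causes were not tested. Deviations of replicate 1 from its group mean were nearly uncorrelated between groups (correlations 0.02, −0.04 and −0.04). That does not show whether the libraries were paired by design. With the replicate block 13 members rose in the first comparison, 9 fell in the second and 0 were called in the third. With 2 libraries a group, a left-out library leaves 1, assumed to vary like the other groups.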
